A study of Equus caballus with 8 samples.

Results

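The activin and follistatin genes were examined in mesenchymal stem cells of equine bone marrow (BM-MSCs), stromal cells isolated from the sternum and expanded on plastic, after culture with TGF-β2. The genes were chosen by symbol. They were the activin subunit genes INHBA and INHBB, the follistatin genes FST, FSTL1 and FSTL3, and the activin receptor genes ACVR1, ACVR1B, ACVR2A and ACVR2B. All 9 had a row among the 15266 named genes, and all 9 passed the filter on low values. The donors were 4 healthy adult horses, Thoroughbreds or Thoroughbred crosses, identified as D, J, L and W. Marrow from each horse was divided between 1 untreated culture and 1 culture that received 1 ng/ml human recombinant TGF-β2, so each group held 4 libraries paired by horse. All cultures were kept in low glucose DMEM with fetal bovine serum, to which the study's methods add basic FGF. The labels place the treatment from isolation to passage 3 or 4, and the methods give it as 3 passages. Each horse contributed a single culture per treatment.

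Activins are dimers of beta subunits, with activin A formed from INHBA chains and activin B from INHBB chains. They bind the type II receptors ACVR2A and ACVR2B, which recruit the type I receptor ACVR1B to phosphorylate SMAD2 and SMAD3, the same transducers that carry TGF-β signals from TGFBR2 and TGFBR1. Follistatin (FST) and follistatin-like 3 (FSTL3) are secreted proteins that bind activin and block its access to receptors, so the balance of ligand and binding protein is a usual way of describing the system. Activin A is known in the marrow as a stromal product that acts on erythroid cells.

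Between 39184554 and 57228675 reads were counted per library. Values are normalized counts, the reads of a gene divided by the size factor of the library, which are not divided by transcript length, so levels were compared between libraries and not between genes. Changes are log2 fold changes of normalized count + 1, treated minus untreated. A gene was called differentially expressed at a Benjamini-Hochberg adjusted p under 0.05 from limma, over 14907 tested genes, if its log2 fold change was also beyond 1 in either direction. The untreated library of horse J stood somewhat apart. It was the lowest or the highest of the 4 untreated libraries for 70.8% of tested genes, against 39.9% to 46.7% for the other 3, and for 8 of the 9 genes described here. Of the 7 mesenchymal stem cell markers looked for, 6 had a row and reads in every library (NT5E, ENG, THY1, CD44, ITGB1 and PDGFRB), and LEPR had no row. Their summed normalized counts ran from 161816 to 355467 in untreated and from 172849 to 271837 in treated libraries. Of the 6, THY1 was called lower (log2 fold change -2.21, limma adjusted p 0.0494), and ITGB1 at 0.91 (0.0123) and PDGFRB at -0.71 (0.0444) were under the fold threshold. The summed normalized counts of 4 haematopoietic markers with a row (of 6) ran from 31.3 to 314 in untreated and from 16.7 to 112 in treated libraries, and those of 2 endothelial markers (of 4) from 7.10 to 26.3 and from 30.04 to 55.7. Of these 2, KDR was called higher (log2 fold change 2.27, limma adjusted p 0.0362) and CDH5 was not called (0.52, 0.346). The 1 adipocyte marker with a row (of 3), ADIPOQ, had 4.71 to 25.2 and 45.7 to 167. It was called higher (log2 fold change 3.12, limma adjusted p 0.0086). Neither of the 2 epithelial markers had a row. The summed 4 smooth-muscle markers ran from 85645 to 305000.1 in untreated and from 345221 to 877665 in treated libraries. Of them 3, ACTA2, TAGLN and CNN1, were called higher. MYH11 was not called (log2 fold change -0.12, limma adjusted p 0.956), being lower in J and W and higher in D and L.

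Of the 9 genes, 2 were called, INHBA and FSTL3, both higher after TGF-β2 treatment. None was called lower by limma, DESeq2 or edgeR. In the limma fit of all 8 libraries, under the deposited normalization and without a horse term, none was lower at an unadjusted p under 0.05. Among all tested genes 11.5% were called, 5.59% higher and 5.87% lower, which is 834 and 875 genes. With libraries scaled to the same total the split was 587 higher and 1538 lower. The median log2 fold change of the 9 genes was 0.46, and that of all tested genes was 0.0055. The libraries of the groups did not overlap, with all treated above all untreated, for 3 of the 9 genes (INHBA, INHBB and FSTL3) and for 13.9% of all tested genes. Under the deposited normalization the change had the same sign in every horse for 4 genes, which were these 3 and FSTL1. For INHBB this rests on a change of 0.00054 in horse W. As shares of all reads, INHBB was lower after treatment in horse W and FSTL1 in horse L. How many of all tested genes had the same sign in every horse was not computed. Together the 9 genes took 0.0889% to 0.176% of the reads of untreated libraries and 0.268% to 0.324% of those of treated libraries.

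**Figure D1:**
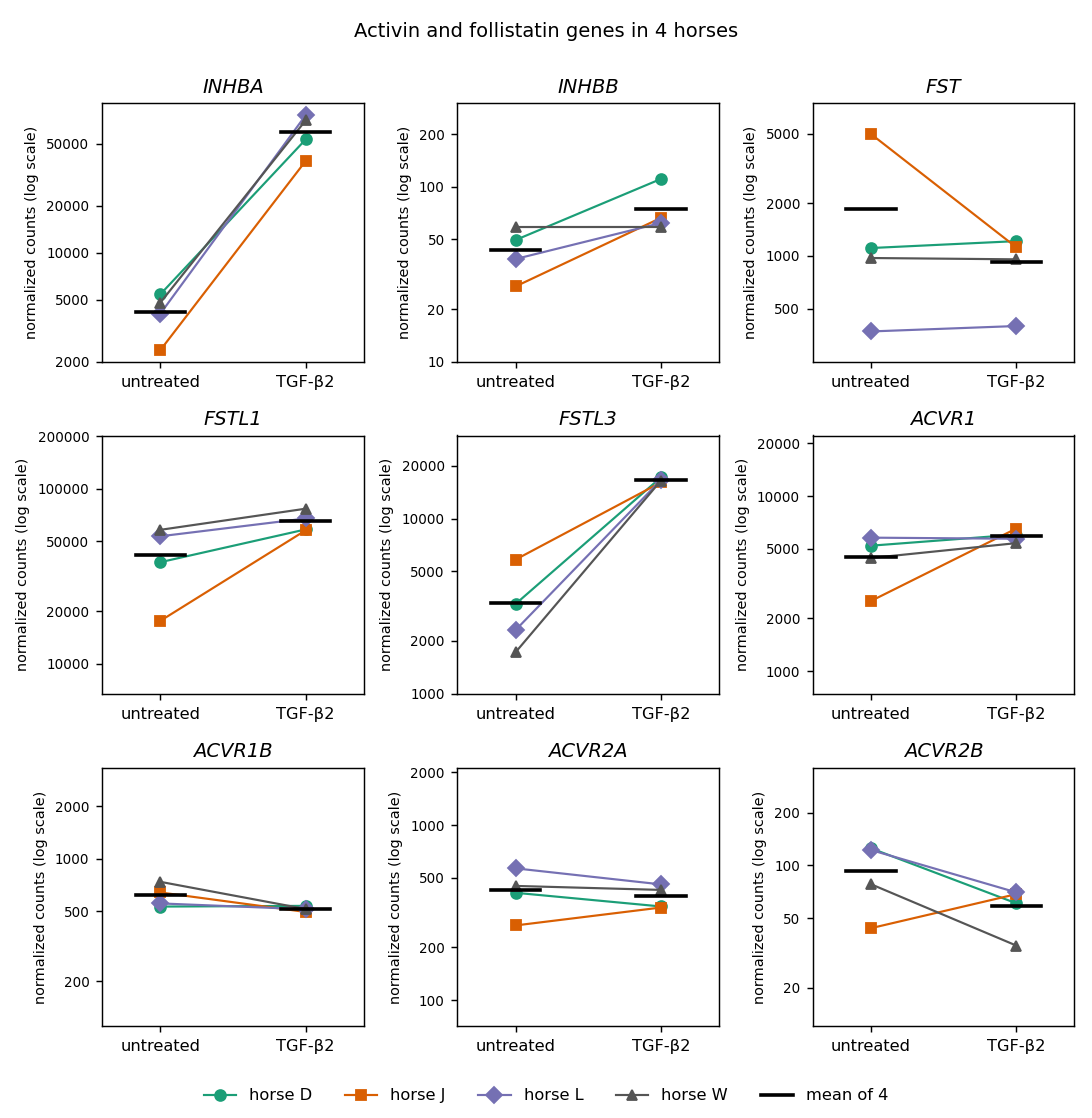
Normalized counts (log axes, which differ between panels) of the 9 genes of both groups of cultures, untreated and with TGF-β2, with 1 line per horse and a black bar at the mean of 4 libraries. INHBA and FSTL3 rose in all 4 horses, the treated libraries of FSTL3 came together between 16096 and 17192, and FST stood at 4977 in the untreated library of horse J.

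INHBA, which encodes the subunit of activin A, rose in every horse and showed the largest change of the 9 genes. The untreated libraries held 5417 normalized counts in horse D, 2378 in J, 4069.7 in L and 4789 in W. After treatment the values were 53279.9 in horse D, 38782 in J, 76169.6 in L and 70579 in W. The lowest treated library was therefore far above the highest untreated one, and horse J was lowest in both groups. The mean rose from 4163 ± 1311 to 59702 ± 17014 normalized counts (SD, n = 4). This is a log2 fold change of 3.86 (SE 0.299, 14.5-fold, limma adjusted p 3.23e-04), which ranked 118 of 14907 tested genes. Single horses changed by 3.298 in D, 4.03 in J, 4.23 in L and 3.88 in W. As a share of all counted reads, INHBA went from between 0.00617% and 0.0141% to between 0.0855% and 0.142%. Without the untreated library of horse J, INHBA stood at 3.61 on the log2 scale (limma adjusted p 3.65e-04). In bulk RNA, a change in the number of expressing cells and a change in RNA per cell cannot be told apart. The smooth-muscle marker sums given above, though not MYH11 by itself, moved in the same direction as INHBA and FSTL3, as did ADIPOQ and KDR. THY1 moved in the other direction, and the part of these markers in the results was not tested.

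INHBB, which encodes the subunit of activin B, had few reads, 40 to 93 per library, and did not pass the test. Untreated libraries held 49.6 normalized counts in horse D, 26.9 in J, 38.6 in L and 58.8 in W. Treated libraries held 111 in horse D, 66.4 in J, 62.1 in L and 58.9 in W. Horses D, J and L were higher after treatment, by 1.14, 1.27 and 0.67 on the log2 scale, and horse W was at the same level in both. The groups were separate under the deposited normalization only by the close values of horse W, and as shares of all reads they overlapped. Its log2 fold change was 0.77 (95% interval 0.0314 to 1.51, limma adjusted p 0.123). INHBB was called under none of the alternatives tried.

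FSTL3, the activin-binding protein with follistatin domains, rose in every horse, to nearly the same level under the deposited normalization. Untreated libraries spread from 1722 in horse W through 2305 in L and 3249 in D to 5826 in J. The treated libraries held 17192 in horse D, 16096 in J, 16607 in L and 16481 in W. All treated libraries lay above all untreated ones, and in normalized counts the horses that differed before treatment hardly differed after it. As shares of all reads the treated libraries were less even, 0.0310% to 0.0368%, against 0.00424% to 0.0151% in untreated ones. The mean went from 3275 ± 1813 to 16594 ± 454 normalized counts (SD, n = 4). On the log2 scale FSTL3 rose by 2.49 (SE 0.327, 5.63-fold, limma adjusted p 0.00216), which ranked 290 of 14907. The change was smallest in horse J, 1.47, whose untreated level was the highest, and ran through 2.403 in D and 2.85 in L to 3.26 in W. Without horse J the value was 2.84 (limma adjusted p 0.00121).

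FST, the main extracellular inhibitor of activin, did not pass the test. Untreated libraries held 1109 normalized counts in horse D, 4977 in J, 370.3 in L and 973 in W. Treated libraries held 1215 in horse D, 1121 in J, 398 in L and 956 in W. Horses D, L and W differed from each other but were close to their own untreated level, with changes of 0.13, 0.103 and -0.0249 on the log2 scale. Horse J went from the highest value of any library to one within the range of the others, a change of -2.15. The fitted log2 fold change was -0.49 (95% interval -2.15 to 1.18, limma adjusted p 0.678). Without horse J the value was 0.0697 (limma adjusted p 0.940), so the negative sign rested on that horse. Of the 4 haematopoietic markers, 2 were highest among untreated libraries in horse J, PTPRC with 109.7 against at most 41.5 and CD3E with 112 against at most 16.2. The other 2 were not, as ITGAM had 20.9 in J against 51.7 in W and ITGB2 71.4 in J against 109.3 in L. Their part in the FST value was not tested.

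FSTL1 has a follistatin domain and is an abundant secreted product of stromal cells. Its normalized counts were higher in all 4 horses, but it was not called. Untreated libraries held 38036 normalized counts in horse D, 17579 in J, 53498 in L and 58226 in W. Treated libraries held 58562 in D, 57897 in J, 67600.4 in L and 76903 in W. The groups overlapped through the untreated library of horse W and the treated library of J. The changes were 0.62 in D, 1.72 in J, 0.34 in L and 0.401 in W. The fit gave a log2 fold change of 0.77 (95% interval -0.0465 to 1.59, limma adjusted p 0.157). Without horse J it was 0.45 (limma adjusted p 0.162). DESeq2 with the horse as a term gave an adjusted p of 0.0168 at a log2 fold change of 0.76, under the fold threshold.

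**Figure D2:**
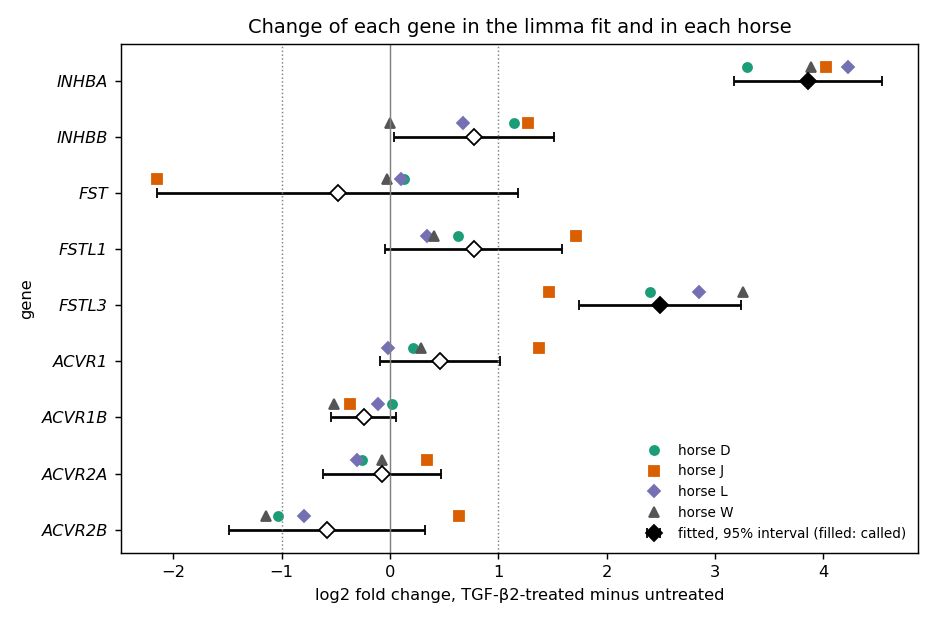
Log2 fold change, TGF-β2-treated minus untreated, of each gene. Diamonds give the limma fit with its 95% interval (filled where called), coloured symbols the change within each horse, and dotted lines the threshold of 1 in either direction. INHBA at 3.86 and FSTL3 at 2.49 lie beyond the threshold, and horse J lies apart from the other horses for FST, FSTL1, ACVR1, ACVR2A and ACVR2B.

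None of the 4 receptor genes passed the test with limma, DESeq2 or edgeR. In the limma fit of all 8 libraries, under the deposited normalization and without a horse term, none had an unadjusted p under 0.05. Their 95% intervals from that fit all included 0. ACVR1, a type I receptor that binds activin A but signals for bone morphogenetic proteins, had 2512 to 5783 normalized counts in untreated and 5381 to 6519 in treated libraries. Horse J held the lowest untreated value, 2512, and the highest treated value, 6519, a change of 1.38, while D, L and W changed by -0.0211 to 0.28. The log2 fold change of ACVR1 was 0.46 (95% interval -0.0897 to 1.01, limma adjusted p 0.205) and was 0.16 without horse J.

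ACVR1B, the type I receptor through which activins signal, had 533 in D, 642 in J, 556 in L and 739 in W without treatment. The treated libraries lay close together, with 538 in D, 497 in J, 515 in L and 517 in W. The groups overlapped in horse D, and the other 3 horses were lower after treatment by up to -0.51. Fitted over the 4 horses, ACVR1B had a log2 fold change of -0.25 (95% interval -0.55 to 0.0584, limma adjusted p 0.220). When libraries were scaled to the same total, which moved the median of all genes by -0.304, ACVR1B stood at -0.56 (limma adjusted p 0.0246) and was still short of the fold threshold. In RefSeq's TB-T2T annotation, another assembly than the one used by the study, a long non-coding RNA gene overlaps ACVR1B, and the sources used here do not give whether reads were counted by strand.

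ACVR2A, a type II receptor for activins, had 411 normalized counts in D, 267 in J, 566 in L and 449 in W without treatment, and 343, 338, 459 and 426 with it. The order of the horses was the same in both groups, with horse L highest, and the groups overlapped over most of their range. Its log2 fold change was -0.0748 (95% interval -0.62 to 0.47, limma adjusted p 0.856).

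ACVR2B, the other type II receptor, had 29 to 144 reads per library. Untreated libraries held 125 normalized counts in D, 43.8 in J, 122 in L and 78.1 in W, and treated libraries 60.7 in D, 68.5 in J, 70.1 in L and 34.8 in W. It was lower after treatment in D, L and W, by -1.03, -0.796 and -1.14, and higher in J, by 0.64. Over all horses ACVR2B had a log2 fold change of -0.58 (95% interval -1.49 to 0.32, limma adjusted p 0.325). Without horse J it was -0.99, just inside the fold threshold, and the limma adjusted p was 0.0834, which the horse block took to 0.0187.

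Ratios between genes within a library do not depend on the scaling between libraries, and their change does not depend on transcript length, although their absolute size does. They were compared as values, without a test. The ratio of INHBA to FST was 4.88 in D, 0.478 in J, 10.99 in L and 4.92 in W without treatment, and 43.9, 34.6, 191 and 73.8 with it. It was higher after treatment in 4 of 4 horses, without overlap, and the mean log2 change was 4.34 ± 1.29 (SD, n = 4). Horse J changed most, by 6.18, and the mean was 3.73 without it. The ratio of INHBA to FSTL3, both of which rose, was 1.67 in D, 0.408 in J, 1.77 in L and 2.78 in W without treatment, and 3.099, 2.41, 4.59 and 4.28 with it. It was also higher in each horse, by a mean of 1.36 ± 0.857 on the log2 scale, but the groups overlapped. Leaving out horse J gave a mean of 0.96.

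The ratio of INHBA to INHBB was similar in the 4 untreated libraries, 81.4 to 109.2, and lay between 481 and 1227 in the treated ones. The ratio of FST to FSTL3, the activin-binding proteins, was 0.161 to 0.854 without treatment and 0.02395 to 0.0707 with it, so that all treated libraries lay below all untreated ones. Its mean log2 change was -2.98 ± 0.593 (SD, n = 4). For the type II receptors, the ratio of ACVR2A to ACVR2B ran from 3.28 to 6.11 and from 4.94 to 12.2, was higher in 3 of 4 horses, and overlapped between groups. For the type I receptors, the ratio of ACVR1 to ACVR1B ran from 3.91 to 10.402 and from 10.42 to 13.1. These groups were separate by a small margin, between the untreated library of L and the treated library of W, and the mean log2 change went from 0.71 to 0.36 when horse J was left out.

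**Figure D3:**
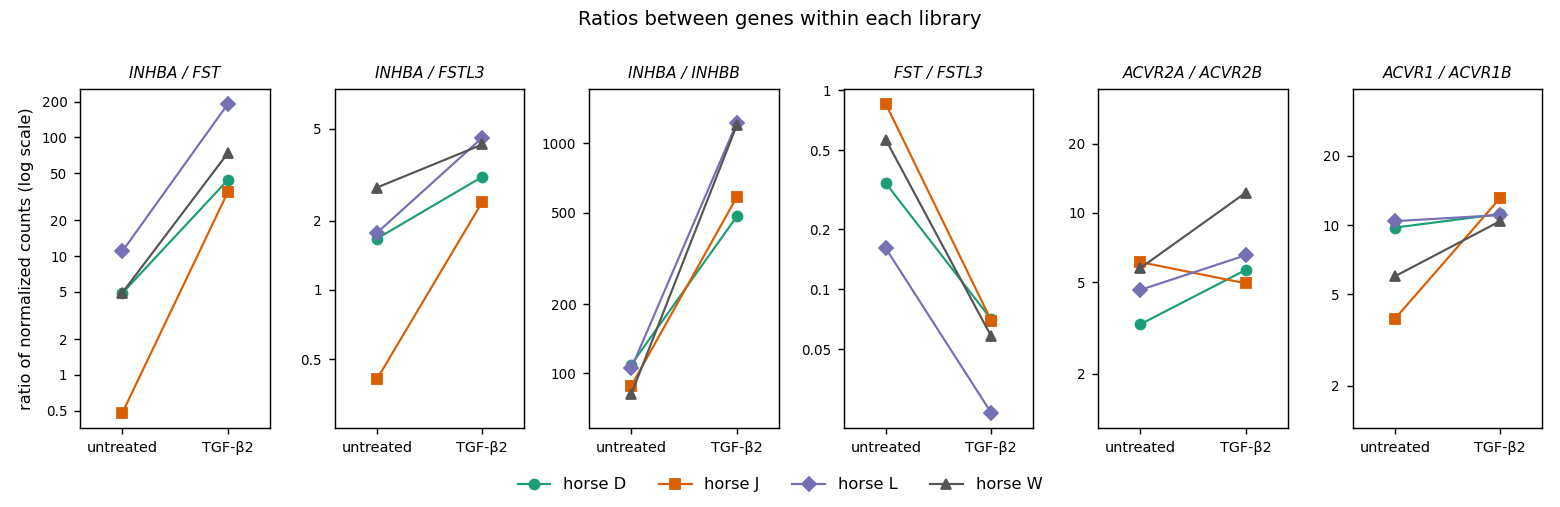
Ratios of normalized counts between pairs of genes within each library (log axes, which differ between panels), with 1 line per horse. INHBA to FST and INHBA to INHBB were higher and FST to FSTL3 lower in all 4 treated libraries, whereas ACVR2A to ACVR2B overlapped between the groups.

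The genes whose changes were most like those of INHBA and FSTL3 were taken as the 3 with the smallest mean absolute difference from them over the 4 horses' log2 changes, among 14898 other tested genes. For INHBA these were BPIFB4, FRAS1 and LMCD1, at distances of 0.295, 0.302 and 0.318. They had far fewer reads than INHBA, with untreated means of 1.49, 3.26 and 7.71 normalized counts and treated means of 45.8, 51.8 and 109. Their changes therefore carry more counting error than that of INHBA, and the size of each depends on the pseudocount. With pseudocounts of 0.5 and 5, BPIFB4 stood at 4.66 and 2.62, FRAS1 at 4.04 and 2.47, and LMCD1 at 3.95 and 3.13. INHBA stood at 3.86 with both, so the nearness holds for a pseudocount of 1. For FSTL3 they were ITGA4, an integrin subunit, CERKL and KDR, a VEGF receptor, at 0.124, 0.213 and 0.221. KDR, also an endothelial marker above, had few reads, with means of 5.79 normalized counts in untreated and 25.2 in treated libraries. Its log2 fold change was 2.44 with a pseudocount of 0.5 and 1.57 with 5. ITGA4 rose from 3867 to 23230 normalized counts in the mean, with 1.31 in horse J and 2.44 to 3.07 in the others. The order of horses was that of FSTL3, but ITGA4 was chosen by nearness to those same changes, so this is not a separate likeness. Without horse D or W, limma without a horse term no longer called FRAS1, and without D, L or W it no longer called ITGA4, CERKL or KDR. KDR was also not called by edgeR without the block (edgeR adjusted p 0.0671). Nor did limma with the block call KDR without horse D (limma adjusted p 0.0542).

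Other genes of the pathway were taken from a list of 51, of which 36 had a row and all 36 were tested. Of these, 4 were called higher, 5 lower and 27 were not called, beside 5.59% higher and 5.87% lower among all tested genes. The counts by role below stand beside the same shares. The 4 were INHBE, LTBP1, PMEPA1 and SKIL, and the 5 were WFIKKN1, ACVRL1, TGFBR2, TGFBR3 and SMAD3. The median log2 fold change of the 36 genes was 0.0138, with the members that moved going both ways. In 2 ligand subunit genes, INHBE rose from a mean of 4.41 ± 8.37 to one of 780.5 ± 600.1 (SD, n = 4), having 0 to 18 reads in any untreated library, so the size of its log2 fold change, 7.97, depends on the pseudocount and was 7.28 without horse W, and INHA, the inhibin alpha subunit, was near the filter in both groups, 7.41 to 22.3 and 8.56 to 26.4. Of the 2 ligands, GDF11, which shares the type II receptors with activin, stood at 0.77 on the log2 scale (limma adjusted p 0.0232), under the fold threshold, and GDF1 stood at 0.0191.

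In the group of follistatin-domain and binding proteins, 1 of 4 genes was called higher and 1 lower. WFIKKN1, a secreted binding protein of GDF11 and myostatin, fell from 69.5 ± 31.5 to 5.09 ± 2.75 normalized counts, a log2 fold change of -3.52 (limma adjusted p 0.00219). Its treated libraries held 2 to 8 reads, so the size of the change depends on the pseudocount. It was -3.66 with a pseudocount of 0.5 and -2.82 with 5. LTBP1, which holds latent TGF-β in the matrix, rose by 1.53 to 1.81 in single horses and by 1.70 in the fit (limma adjusted p 0.00526). It was not called without horse D when the model had no horse term, where its adjusted p was 0.0536.

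Of 8 receptors, co-receptors and decoys, limma called 3 lower and none higher. TGFBR3 (betaglycan), the co-receptor that presents TGF-β2 and also binds inhibin, had the largest decrease. Untreated libraries held 13878 normalized counts in D, 4594 in J, 6059 in L and 8005 in W, and treated libraries held 181 in D, 168 in J, 137 in L and 171 in W. The treated level was low and even across horses. TGFBR3 fell by 5.505 on the log2 scale (limma adjusted p 1.02e-04). ACVRL1, a type I receptor known mainly from endothelial cells, fell from 293 ± 119 to 52.9 ± 23.8 (limma adjusted p 0.00449), and TGFBR2, the type II TGF-β receptor, from 6819.98 ± 1218 to 3190.4 ± 490.3. TGFBR2 had a log2 fold change of -1.09 and was no longer called without horse W, where it was -0.99. BAMBI, a decoy receptor without kinase activity, stood at -1.202 (limma adjusted p 0.0949), with changes of -2.52 to -1.28 in D, L and W and 0.59 in J. BAMBI was called lower by DESeq2 without the block, under total scaling, and by limma without horse J or its untreated library. TGFBR1, the type I TGF-β receptor, stood at 0.32 (limma adjusted p 0.4996).

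Among 16 transducers and regulators, 2 were called higher and 1 lower. SMAD3, a transducer shared by activin and TGF-β, fell from 6929.6 ± 673.5 to 1239 ± 286 normalized counts (SD, n = 4), with changes of -3.09 to -1.99 on the log2 scale in single horses. The fitted value was -2.51 (limma adjusted p 2.75e-04). SMAD2 stood at -0.502 (limma adjusted p 0.0160), under the fold threshold, while SMAD4 and SMAD7 stood at 0.00034 and 0.0243, and the sign of both turned when libraries were scaled to the same total. SKIL and PMEPA1, inhibitors of SMAD signalling that TGF-β is known to induce, had log2 fold changes of 1.61 and 3.06 (limma adjusted p 2.28e-04 and 0.0105). PMEPA1 changed by 5.23 in horse J and by 1.80 to 2.99 in the others, and its value was 2.34 without J and 2.43 without the untreated library of J. It was no longer called without horse W, where the adjusted p from limma was 0.0733. None of the 3 convertases that could cleave pro-activin was called, and FURIN, the best known of them, stood at 0.67 (limma adjusted p 0.0121; unadjusted p under 0.05 in this gene alone).

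**Figure D4:**
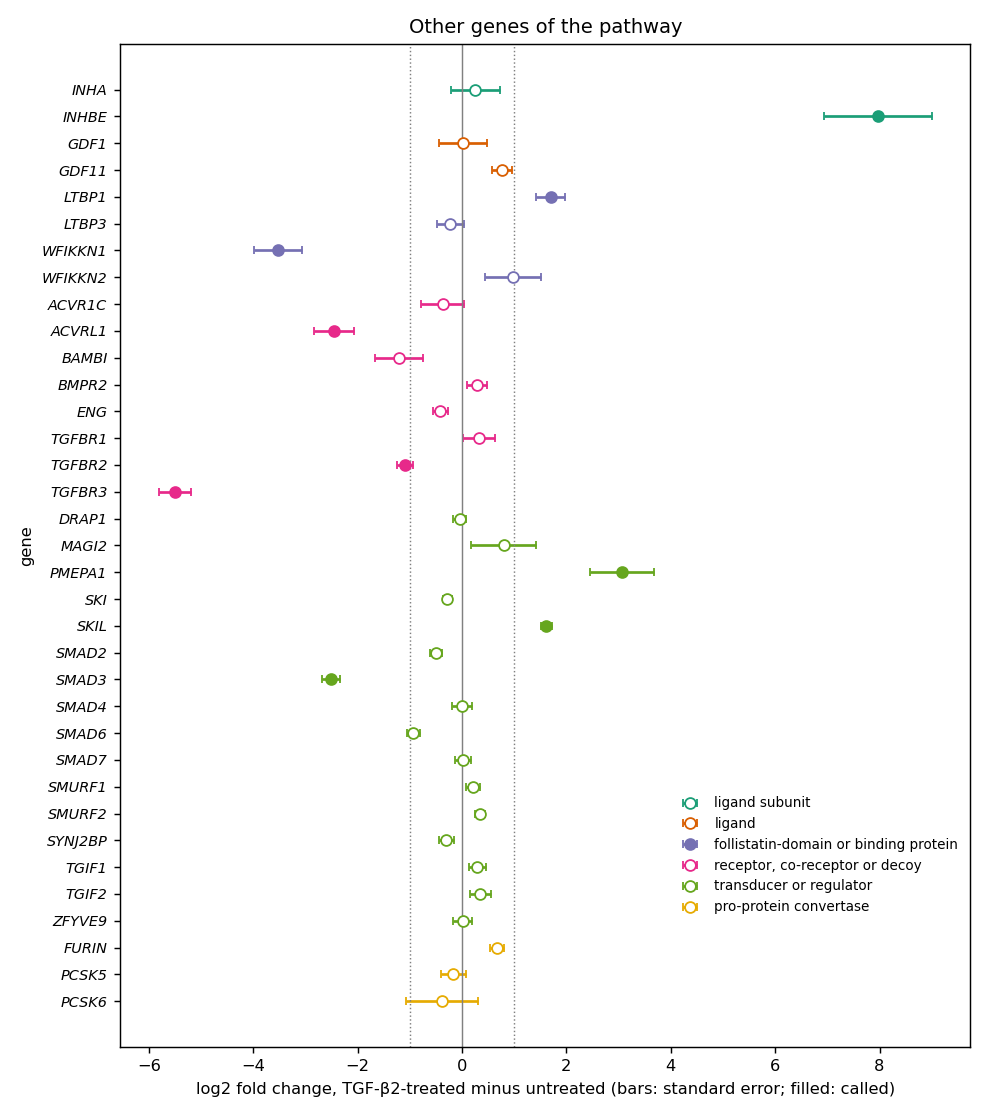
Log2 fold change, TGF-β2-treated minus untreated, of other pathway genes tested, with standard errors as bars, filled symbols for called genes and colours for their roles. The called genes lie on both sides, from TGFBR3 at -5.505 to INHBE at 7.97.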

How the data were processed

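RNA-seq was performed on 8 libraries of BM-MSCs from 4 horses. The authors used Trimmomatic 0.36 for trimming and STAR 2.5.2b for alignment to EquCab 3.0, counted unique gene hits with featureCounts (Subread 1.5.2) and deposited normalized counts, a signal that equals gene counts divided by 1 size factor per library. The table had 15267 rows, and 1 without a name, 0.0281% to 0.0531% of the signal, was left out. All values (100%) were whole multiples, within 0.01 read, of 1 step per library, so reads were recovered for the depth and the count tests. A floor of 3 reads corresponds to 2.02 to 3.604 normalized counts and covers counting error only.

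Treated and untreated libraries were compared with limma 3.58.1 (trend, R 4.3.3) on log2(normalized count + 1), for genes that reached 10 normalized counts in 4 or more of the 8 libraries, without a horse term, since the methods name none. Alternatives were the horse as a block, other pseudocounts, filters, scalings and thresholds, no trend, DESeq2 1.42.0 and edgeR 4.0.16 on recovered reads, and each horse left out. Leaving out 1 library of horse J alone, and the ratios without each horse, were added after seeing values. The libraries are paired by horse: deviations from group means correlated across genes by 0.386 to 0.609 within horses and by -0.159 on average between them. Taking deviations from group means itself draws the average between horses below 0, so that value is no separate evidence of pairing. With 1 culture per horse and treatment, the spread behind the p-values holds differences between horses, cultures and library preparations together. Without a horse term it is the spread of levels within groups, and with the block that of the paired changes. The fits were tested on simulated data that held no differences between horses. That simulation therefore cannot judge whether the horse belongs in the model.

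The 9 genes, the pathway and marker lists and the tests were chosen with earlier results of these data known. Named were the 9 genes, called pathway genes with INHBE, SMAD2, SMAD3, SMAD4 and SMAD7, and the 3 genes nearest to each called member. Other pathway genes were named after their values were seen. Uncalled genes that are not named are given as counts or in the plot, and 1 gene of the list is not reported here. All 9 symbols matched RefSeq's TB-T2T annotation. No sequence, coordinate or transcript length of EquCab 3.0 was used here, so ratios per kilobase were not computed.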

Additional observations from a re-analysis of the deposited data

Results flagged for a closer look

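In 5 of 54 groups of 4 libraries (27 named genes, both groups), 1 library lay far from the other 3 by Dixon's 95% criterion for the gap over the range. Chance gives about 1 group in 20 for independent, normally distributed values. The criterion was applied here to normalized counts, not their logs, and all groups came from the same 8 libraries. The 5 of 54 therefore cannot be set against that rate.

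FST had 4977 normalized counts in the untreated library of horse J, against 370.3 to 1109 in the others. INHBB had 111 in the treated library of horse D, against 58.9 to 66.4, which rests on 93 reads against 49 to 62. INHBE had 16.96 in the untreated library of horse L, against 0 to 0.673, and SKIL 3701 in the treated library of horse J. FRAS1 had 133 in the treated library of horse L. The calls of INHBE and SKIL held with any 1 horse left out. The causes of these differences were not tested.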

How the results depend on the processing

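INHBA and FSTL3 were called under each of the 22 other fits and under the stricter and looser thresholds, with log2 fold changes of 3.55 to 4.04 and 2.18 to 2.84, and the other 7 genes under none. With the replicate block by horse the adjusted p from limma was 7.87e-04 for INHBA and 0.00436 for FSTL3, and 2 of the 9 genes and 9 of the 36 pathway genes were called, as without it. In the limma fit on all 4 horses the block changed no call of these genes. Elsewhere it did for 3 pathway genes: BAMBI was called by DESeq2 only without it, and LTBP1 without horse D and WFIKKN2 without horse J only with it. Over all genes it gave 2108 calls against 1709. The count was 885 at an adjusted p under 0.01 and 3403 without a fold threshold, where 14 pathway genes passed. With 1 horse left out it ran from 718 (without D; 795 without W) to 1899 (1911 without the untreated library of J), and with the block from 1080 (without W) to 2442. Total scaling moved the median gene by -0.304.

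Of the 27 genes whose log2 fold changes were followed through the alternatives, signs turned for 4, none of them called. The signs of the other genes named above, such as GDF1 and TGFBR1, were not followed. FST was -0.49, and -1.01 with DESeq2 or edgeR without the block. With 1 horse left out FST ran from -0.69 to 0.0697 (without J, with and without the block), and was 0.203 without the untreated library of J. ACVR2A stood at 0.0014 without horse L and at -0.279 without the untreated library of J. SMAD4 was -0.0333 with DESeq2 and -0.0023 with DESeq2 and the block, -0.0307 with edgeR and -0.00046 with edgeR and the block, -0.31 under total scaling, -0.12 without horse J and -0.19 without its untreated library, and up to 0.0632 without another horse. SMAD7 was -0.29 under total scaling, -0.0601 without horse D with and without the block, -0.14 without J, 0.15 without W and -0.053 without the untreated library of J. The depth limits INHBB and ACVR2B, with at most 93 and 144 reads in any library. The ratios per kilobase were not run. The cause of these changes was not tested.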
